A study of Homo sapiens with 18 samples.

Results

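The genes described here are 10 transcripts by which tumor cells restrain or engage immune cells: the ligands CD274 (PD-L1), PDCD1LG2 (PD-L2), LGALS9, CD47, CD276 (B7-H3), NECTIN2 and PVR, and the tryptophan enzymes IDO1, KYNU and WARS1. They were chosen by symbol, as the rows of the gene count table whose Ensembl identifier belongs to one of these names. That rule uses no measured value, but the set was drawn up with earlier results of these data known. All 10 were found among the 35044 genes of the table, and all 10 are among the 18335 genes that passed the filter on low counts. The expression of each gene was followed over 6 conditions.

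RNA-seq was performed on 18 libraries labelled as HCC1937, an established triple-negative breast cancer cell line that carries mutated BRCA1. The libraries are labelled HCC1937-EV, cells with an empty vector, or HCC1937-OE-BRCA1, in which the study describes overexpression of wild-type BRCA1. Both were taken at 0 h, 12 h and 24 h of treatment with olaparib, an inhibitor of the DNA repair enzyme PARP1 (PARPi), with 3 libraries per condition. The sample labels name olaparib for the 0 h libraries too and call the genotype of HCC1937-EV wild type, so the groups rest on the cell line and time in the sample titles. Nothing in the labels says that the 3 libraries of a condition came from separate cultures, so the p-values measure the spread between these libraries, which may be technical. The study calls the 2 lines congenic, and whether either is 1 clone is not given in the sources used here.

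PD-L1 and PD-L2 bind PD-1 on T cells and dampen their activation, galectin-9 binds TIM-3 and other receptors, CD47 signals to SIRPα on macrophages to prevent phagocytosis, and NECTIN2 and PVR are shared by the inhibitory receptor TIGIT and the activating receptor DNAM-1. IDO1 is the rate-limiting enzyme of tryptophan breakdown to kynurenine in many tumors, KYNU cleaves kynurenines further down the pathway, and WARS1 charges tRNA with tryptophan. IDO1, WARS1, CD274 and LGALS9 are known targets of interferons, in part through IRF1. CD276, the nectin ligands and CD47 are widely expressed on epithelial tumor cells.

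The libraries hold between 15081973 and 17571922 counts. The targeted gene, BRCA1, had 138.5 ± 24.0 CPM (counts scaled to library size after TMM normalization; mean ± SD, n = 3) in the 0 h libraries labelled HCC1937-OE-BRCA1 and 118 ± 7.7 CPM in those labelled HCC1937-EV. That difference was not called by edgeR, with an adjusted p of 0.0654. At 12 h the level was 123 ± 7.99 CPM against 110 ± 13.2 CPM and was not called either (adjusted p = 0.197). Only at 24 h, with 161 ± 7.08 CPM against 94.5 ± 4.47 CPM, was it called higher (adjusted p = 3.165e-06). The label of an epithelial line was also checked. All 8 epithelial markers exceeded a mean of 1 CPM in the libraries labelled OE-BRCA1, where their summed level was 6309 to 10280 CPM. In those labelled EV only KRT8, KRT18 and KRT17 did, with a summed level of 2424 to 3171 CPM, and EPCAM had 0.0206 ± 0.0356 CPM at 0 h against 310.1 ± 50.8 CPM. Of 5 fibroblast markers 3 were tested at 0 h. COL1A1 had 98.6 ± 9.31 CPM in EV and 7.45 ± 1.52 CPM in OE-BRCA1, PDGFRB had 8.17 ± 0.631 against 0.021 ± 0.0364 CPM, and COL3A1 was called the other way, with 0.062 ± 0.0621 against 0.637 ± 0.617 CPM. VIM, which encodes the mesenchymal filament vimentin, had 306 ± 25.3 CPM at 0 h in EV and 1.05 ± 0.273 CPM in OE-BRCA1. VIM was picked for this check after its values were seen. The libraries labelled EV therefore go against their label as plain HCC1937 cells, and a difference between the labelled lines cannot be told apart from their other differences. In bulk RNA, fewer cells of a type and less RNA per cell cannot be told apart either. For this reason the treatment comparisons within the libraries labelled OE-BRCA1 are given first, and their counts are also given without the libraries labelled EV.

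The upstream DNA of CD274 is shown in full, as an example of a window with matches to both interferon motifs that were searched, which WARS1 has too. The sequence is taken from RefSeq on GRCh38.p14, chr9:5450292-5450502, plus strand, 211 bases that end before the first annotated exon of the gene. Capitals mark the 2 overlapping matches, on the reverse strand, to the core of the interferon-stimulated response element and the single match to the gamma-activated site (GAS).
CD274 upstream: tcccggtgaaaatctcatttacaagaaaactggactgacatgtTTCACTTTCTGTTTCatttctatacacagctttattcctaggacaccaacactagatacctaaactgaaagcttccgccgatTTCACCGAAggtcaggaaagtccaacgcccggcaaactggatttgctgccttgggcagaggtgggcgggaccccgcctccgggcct
The searched motifs were TTCNNNGAA for GAS, GAAANNGAA for the response element core and TGATGNAA for the amino acid response element, on both strands. Among 35116 promoter windows of 300 bases, 7.66% held the GAS motif, 8.11% the response element core and 3.62% the amino acid response element. Windows were read for 8 of the 10 members, and none was read for IDO1 and PDCD1LG2, about which nothing is said here. Matches lay in the windows of CD274, WARS1, LGALS9 and KYNU, which is a description of these windows and no test. None of the 8 members read held the amino acid response element, and the windows of CD47, CD276, NECTIN2 and PVR held none of the 3 motifs. The matches outside CD274, with 8 bases on either side and the motif in capitals, are these.
WARS1, response element core, chr14:100375386-100375410, minus strand: tcagaaggGAAACTGAAagaaagag
WARS1, GAS, chr14:100375473-100375497, minus strand: tcaagtgtTTCTGAGAAtctgggtg
LGALS9, response element core on the reverse strand, chr17:27631172-27631196, shown on the plus strand: gctttggtTTCTATTTCtttgttaa
KYNU, GAS, chr2:142877622-142877646, plus strand: ctgagcagTTCTTTGAAtttctcac
A second GAS match in KYNU lies just after its start. A match describes the letters of the window and not a bound site.

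After 12 h of PARPi treatment, 3 of the 10 members were higher in the libraries labelled OE-BRCA1, namely IDO1, WARS1 and LGALS9. After 24 h these were joined by CD274 and KYNU, so that 5 of 10 were called higher and none lower. A gene was called when edgeR's quasi-likelihood F-test gave an adjusted p under 0.05 over all 18335 genes, whatever the fold change. By the same rule 2.31% of all genes tested were called at 12 h and 8.26% at 24 h. The median log2 fold change of the members was 0.22 at 12 h and 0.41 at 24 h, against 0.00 and 0.02 for all genes tested. The 3 libraries of each condition did not overlap for 5 members at 12 h and 8 at 24 h. Both counts include PVR, whose treated libraries lay lower (log2 fold change −0.10 and −0.16, not called). The share of all genes without overlap was not counted, so these counts are not read as a result about the members. In the 9 libraries labelled OE-BRCA1 alone the counts were 3 and 4, KYNU being lost. Both treatment comparisons share the same 0 h libraries. For 1 gene and groups of 3, the exact permutation test, two-sided, has 0.1 as its smallest p. In the same 24 h libraries 4 of 8 epithelial markers were called lower (KRT5, KRT8, KRT18 and CDH1, by 0.35 to 0.56 on the log2 scale). KRT17 (−0.42), KRT14 (0.54), KRT19 (0.15) and EPCAM (0.11) were not called. Of 3 endothelial markers PECAM1 was higher by 0.92, while CDH5 (−0.64) and VWF (−0.24) were not called. The part of these markers in the 24 h calls was not tested.

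**Figure D1:**
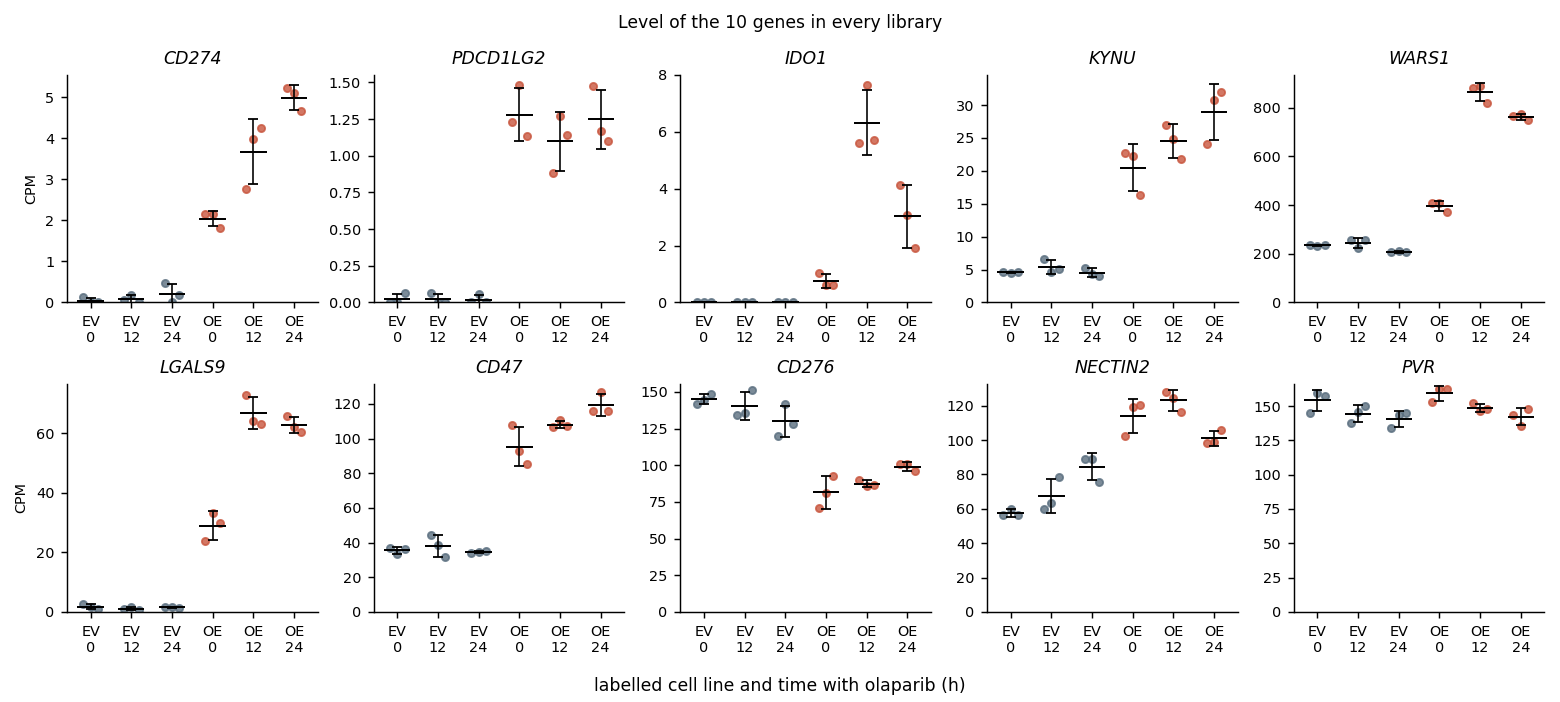
Level of the 10 genes in each of the 18 libraries, in CPM on linear axes that start at 0. Points are libraries, horizontal lines are means and bars are the SD of 3 libraries, with libraries labelled EV in grey and OE-BRCA1 in red at 0, 12 and 24 h. IDO1 has no count in any of the 9 EV libraries and peaks at 12 h in OE-BRCA1, whereas PVR lies between 134.1 and 162.5 CPM in all 18 libraries.

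CD274, which encodes PD-L1, was called at 24 h and not at 12 h in the libraries labelled OE-BRCA1. The gene spans positions 5450503 to 5470566 of chromosome 9 (GRCh38, GENCODE 29, as for all positions here). OE-BRCA1 libraries had 2.16, 2.16 and 1.83 at 0 h, 2.77, 3.99 and 4.26 at 12 h, and 5.22, 5.10 and 4.66 CPM at 24 h. All libraries of a later time lay above those of the earlier one. The counts behind these levels are small, 99 reads over the 3 libraries at 0 h, 177 at 12 h and 244 at 24 h. The log2 fold change against 0 h was 0.84 (SE 0.36, adjusted p = 0.339) at 12 h, which was not called, and 1.28 (SE 0.35, adjusted p = 0.0287) at 24 h, which is a 2.43-fold rise. At 24 h the log2 fold change was 1.32 (adjusted p = 0.0851) without replicate 2 at 0 h and 1.21 (adjusted p = 0.102) without replicate 3 at 0 h. Without replicate 1, 2 or 3 at 24 h the value was 1.25 (adjusted p = 0.0886), 1.27 (adjusted p = 0.0834) or 1.33 (adjusted p = 0.0798). The size thus held while the call was lost in 5 of 6 such fits.

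PDCD1LG2, the gene of PD-L2, lies next to CD274 on chromosome 9, from 5510570 to 5571254, and was not called with it. It had 1.23, 1.48 and 1.13 at 0 h, 0.88, 1.27 and 1.14 at 12 h, and 1.48, 1.17 and 1.104 CPM at 24 h in the libraries labelled OE-BRCA1. These ranges overlap. The log2 fold change was −0.22 (95% interval −1.03 to 0.59) at 12 h and −0.04 (−0.83 to 0.76) at 24 h, intervals wide enough to include a change of the size seen for KYNU. Per kilobase of exon the ratio of CD274 to PDCD1LG2 moved from 0.919 at 0 h to 1.93 at 12 h and 2.30 at 24 h.

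Among 14 listed neighbours of CD274 on 9p24.1, 10 were tested. In the libraries labelled OE-BRCA1, 2.31% of all genes tested were called at 12 h and 8.26% at 24 h. Of the 10 neighbours edgeR called none there at 12 h (1 at an unadjusted p under 0.05, none by DESeq2) and 1 at 24 h. That gene is JAK2, a kinase of interferon gamma receptor signaling, which starts at −466.1 kb from the start of CD274. JAK2 went from 8.004 ± 2.28 CPM before treatment to 14.6 ± 0.959 CPM at 24 h, a log2 fold change of 0.87 (SE 0.21, adjusted p = 0.0126). PLGRKT, at −92.5 kb, and RIC1, at 178.5 kb, had log2 fold changes of −0.12 and 0.12 at 24 h, neither called. INSL4, a placental relaxin-like hormone of this cluster, had 23.5 CPM at 0 h in the libraries labelled EV and no count in those labelled OE-BRCA1.

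**Figure D2:**
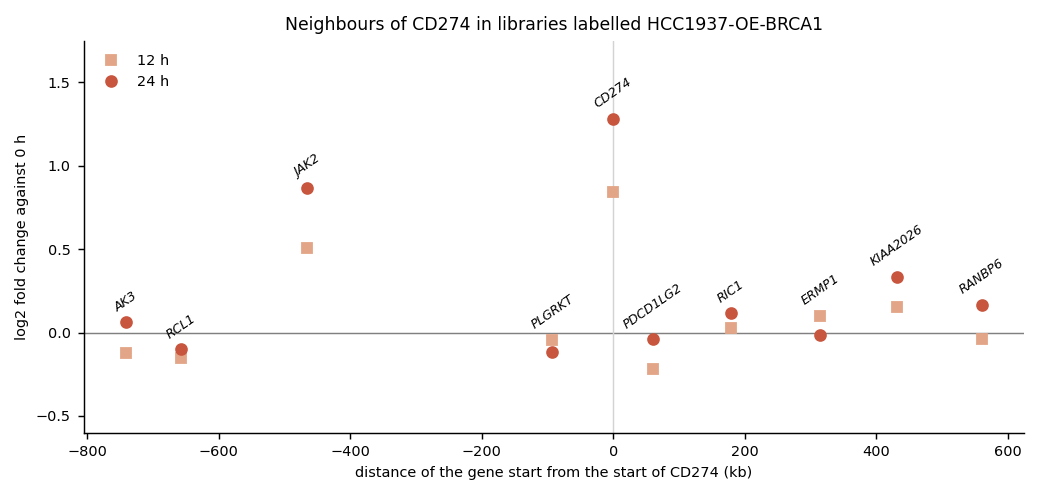
Log2 fold change against 0 h of CD274 and its neighbours in the libraries labelled OE-BRCA1, plotted by the distance of each gene start from that of CD274 in kb. Squares are 12 h and circles are 24 h, for the 10 tested genes with at least 1 CPM at 0 h. CD274 and JAK2 stand at 1.28 and 0.87 at 24 h, while PDCD1LG2, 60.1 kb from CD274, stands at −0.04.

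PD-L1 protein is held at the cell surface by CMTM6 and CMTM4 and is ubiquitinated through STUB1, and CD47 needs QPCTL for binding of SIRPα. Of the 8 tested genes of this list none was called at 12 h in the libraries labelled OE-BRCA1 (1 at an unadjusted p under 0.05, none by DESeq2). At 24 h, 2 were lower: CMTM4 fell from 127 ± 17.1 to 92.9 ± 4.44 CPM (log2 fold change −0.45, adjusted p = 0.0176) and STUB1 from 82.5 ± 23.3 to 50.5 ± 6.73 CPM (−0.71, adjusted p = 0.0358). EV libraries had 2 higher at 24 h, STUB1 by 0.74 (adjusted p = 0.0215) and QPCTL by 0.67 (adjusted p = 0.00521) on the log2 scale. Of all genes tested 2.31% were called at 12 h and 8.26% at 24 h in OE-BRCA1, and 13.7% at 24 h in EV. CMTM6 had 61.6 ± 13.95 CPM before and 70.7 ± 2.48 CPM after 24 h in OE-BRCA1 and was not called.

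Among the 10 genes IDO1 had the largest log2 fold change at both times in the libraries labelled OE-BRCA1. It spans 39902275 to 39928444 on chromosome 8. Its level in these libraries was 1.05, 0.616 and 0.63 at 0 h, 5.59, 7.62 and 5.72 at 12 h, and 4.12, 3.07 and 1.90 CPM at 24 h. The 3 times do not overlap, so IDO1 was highest at 12 h and lay between at 24 h. The counts were 37 reads over the 3 libraries at 0 h, 305 at 12 h and 148 at 24 h. The log2 fold change against 0 h was 3.03 (SE 0.35, adjusted p = 0.000122) at 12 h, which is 8.18-fold, and 1.97 (SE 0.36, adjusted p = 0.00362) at 24 h, which is 3.93-fold. With each library left out in turn these stayed between 2.87 and 3.32 and between 1.69 and 2.27, all called. From 12 h to 24 h the log2 fold change was −1.06 (SE 0.30, adjusted p = 0.0954), which was not called over the 18 libraries. It reached an adjusted p of 0.00774 in the 6 libraries compared alone and 0.028 with an offset for GC content and gene length. No read was counted on IDO1 in any of the 9 libraries labelled EV, so the gene gives no estimate of a treatment effect there. A count of 0 over 3 libraries allows up to 0.0619 CPM at 0 h, counting error only.

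KYNU, which acts downstream of IDO1 in the pathway, was called at 24 h alone. It is on chromosome 2 from 142877498 to 143055832. It had 22.7, 22.3 and 16.4 at 0 h in OE-BRCA1, 26.96, 24.8 and 21.8 at 12 h, and 24.08, 30.8 and 31.9 CPM at 24 h. The 0 h and 12 h libraries overlap and the 0 h and 24 h libraries do not. The log2 fold change was 0.26 (SE 0.15, adjusted p = 0.563) at 12 h and 0.50 (SE 0.15, adjusted p = 0.0493) at 24 h. The latter lies at the threshold: it was lost in 4 of 6 fits with a library left out, at 0.57 (adjusted p = 0.0808) and 0.36 (adjusted p = 0.206) without replicates 2 and 3 at 0 h, and at 0.45 (adjusted p = 0.149) and 0.42 (adjusted p = 0.213) without replicates 2 and 3 at 24 h. It was also lost with an offset for GC content and length (0.27, adjusted p = 0.322). EV libraries had 4.56 ± 0.0941, 5.37 ± 1.03 and 4.52 ± 0.665 CPM at 0, 12 and 24 h, with no call.

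Of 23 other genes of tryptophan uptake, breakdown and kynurenine sensing 18 were tested. In the libraries labelled OE-BRCA1 1 was higher at 12 h, and 2 were higher and 1 lower at 24 h, beside 2.31% and 8.26% of all genes tested. The median log2 fold change of the list was 0.03 and −0.13. CYP1A1, a target of the kynurenine-binding aryl hydrocarbon receptor, rose from 3.91 ± 0.0788 to 8.55 ± 1.07 CPM at 12 h (log2 fold change 1.13, adjusted p = 0.00189) and had 2.82 ± 0.53 CPM at 24 h. TIPARP, another target of that receptor, rose at 24 h by 0.39 on the log2 scale (adjusted p = 0.022), and the other gene called higher, the transporter SLC7A8, stayed under 1 CPM. SLC7A5, the transporter that brings tryptophan into the cell, fell from 2736 ± 333.5 to 1868 ± 44.2 CPM at 24 h (log2 fold change −0.55, adjusted p = 0.00081). TDO2, which catalyses the same step as IDO1, had no count at 0 h in either line. QPRT, which turns quinolinate into a precursor of NAD, rose in the libraries labelled EV from 68.8 ± 0.468 to 146.9 ± 9.06 CPM at 24 h (log2 fold change 1.095, adjusted p = 0.000326) and had at most 0.146 CPM on average in those labelled OE-BRCA1.

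WARS1, the tryptophanyl-tRNA synthetase, had the highest level per kilobase of exon among the members in the libraries labelled OE-BRCA1. It lies on chromosome 14 from 100333788 to 100376805 on the minus strand. Its level was 409, 407 and 370.5 at 0 h, 883, 888 and 819.8 at 12 h, and 766, 774 and 748 CPM at 24 h. The 12 h and 24 h libraries all lay at 748 CPM or above and those at 0 h at 409 CPM or below. Against 0 h the log2 fold change was 1.13 (SE 0.08, adjusted p = 1.535e-08) at 12 h and 0.95 (SE 0.08, adjusted p = 1.373e-07) at 24 h. EV libraries had 235 ± 1.68, 246 ± 20.8 and 209 ± 4.05 CPM at 0, 12 and 24 h, with no call by edgeR. WARS1 shares 6.06% of its exonic bases with a gene on the opposite strand, and whether the counting used strand is not given in the sources used here.

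In the libraries labelled OE-BRCA1, edgeR called 2.31% of all genes tested at 12 h and 8.26% at 24 h. None of the 19 other cytosolic aminoacyl-tRNA synthetases was called there at either time. At an unadjusted p under 0.05 there were 1 at 12 h and 3 at 24 h, and DESeq2 called none at 12 h and 2 at 24 h. Their log2 fold changes ranged from −0.22 to 0.24 at 12 h and from −0.43 to 0.17 at 24 h. The summed level of these 19 enzymes was 4401 ± 134.5, 4446 ± 124 and 4244 ± 70.6 CPM at 0, 12 and 24 h. WARS1 thereby took 8.24% ± 0.192 of the synthetase CPM at 0 h, 16.3% ± 0.221 at 12 h and 15.2% ± 0.341 at 24 h (SD, n = 3). Its share in the EV libraries lay between 3.06% and 3.49%. There 4 of the 19 were called lower and 1 higher by edgeR at 24 h, against 13.7% of all genes tested, and DESeq2 called 9. GARS1, TARS1 and KARS1 fell by 0.28 to 0.37 on the log2 scale, and QARS1 rose by 0.48.

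**Figure D3:**
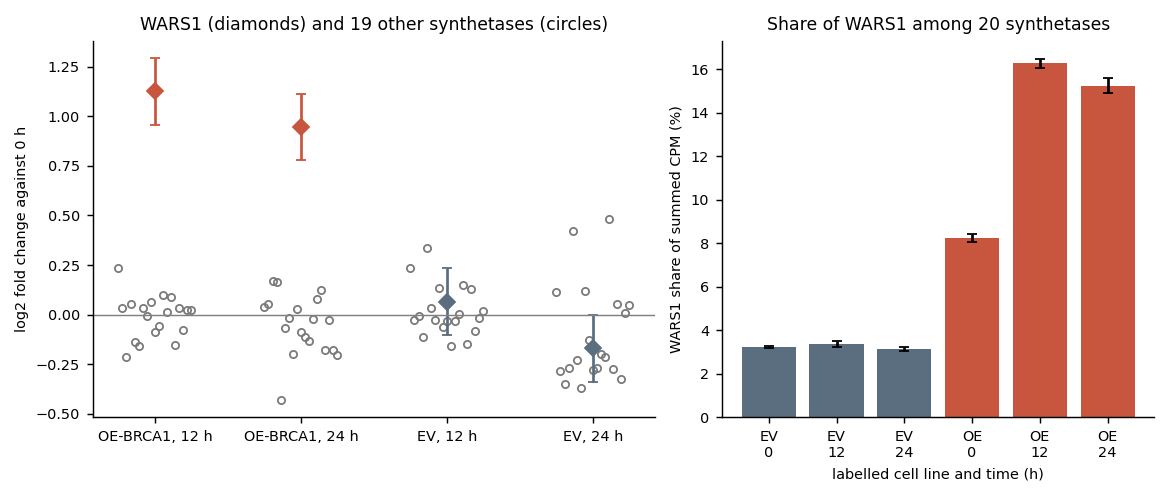
Left, log2 fold change against 0 h of WARS1 (diamonds, with 95% intervals) and of 19 other cytosolic aminoacyl-tRNA synthetases (open circles) in 4 treatment comparisons. Right, mean share of WARS1 in the summed CPM of the 20 enzymes with the SD of 3 libraries, from 0; the share goes from 8.24% to 16.3% at 12 h in OE-BRCA1 and stays near 3% in EV.

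LGALS9, which encodes galectin-9, rose 2.30-fold at 12 h and 2.165-fold at 24 h in the libraries labelled OE-BRCA1. It is on chromosome 17 from 27629798 to 27649560. Its level was 23.8, 33.2 and 30.04 at 0 h, 73.0, 64.2 and 63.1 at 12 h, and 65.9, 62.0 and 60.6 CPM at 24 h. The treated libraries lay above all 0 h libraries and did not separate from each other. On the log2 scale the rise was 1.20 (SE 0.16, adjusted p = 0.000119) at 12 h and 1.11 (SE 0.16, adjusted p = 0.000163) at 24 h. EV libraries had 1.755 ± 0.771, 1.11 ± 0.415 and 1.501 ± 0.212 CPM at 0, 12 and 24 h, with no call. LGALS9 shares 5.15% of its exonic bases with AC015688.4 on the same strand. Reads from the near-identical copies LGALS9B and LGALS9C may be shared with LGALS9 in such counts. CD14, a marker of myeloid cells, rose in the same libraries, from 40.6 ± 8.39 to 77.7 ± 4.97 CPM at 12 h (log2 fold change 0.94, adjusted p = 0.000612), and its part in the result was not tested. Of 10 leukocyte markers 6 were in the table and 3 exceeded a mean of 1 CPM in OE-BRCA1, with a summed level of 38.8 to 91.9 CPM against 1.304 to 2.65 CPM in EV, where the defining leukocyte marker PTPRC had no count. PTPRC had 1.09 CPM on average at 0 h and 0.931 CPM at 12 h in OE-BRCA1.

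Of the receptors that these ligands bind on immune cells, SIRPA had a mean of 8.11 to 14.5 CPM over the 6 conditions, and every other receptor in the table had at most 1.98 CPM. Of 8 receptors 6 were in the table and 4 were tested. Of all genes tested 2.31% and 8.26% were called at 12 h and 24 h in OE-BRCA1, and 0.0436% and 13.7% in EV. Among the 4 receptors edgeR called none in these 4 treatment comparisons. At an unadjusted p under 0.05 there were 1 and 2 in OE-BRCA1 at 12 h and 24 h, and DESeq2 called none. DESeq2 gave an adjusted p for only 2 and 1 of the 4 at these times, and for 1 at each time in EV. HAVCR2, the gene of TIM-3, had at most 0.0605 CPM in any condition mean.

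CD47, CD276, NECTIN2 and PVR were not called by edgeR after treatment in the libraries labelled OE-BRCA1, whereas DESeq2 called CD47 and CD276 higher and PVR lower at 24 h. CD47, on chromosome 3 from 108043094 to 108091862 on the minus strand, had 108.1, 92.7 and 85.6 at 0 h, 107, 111 and 107 at 12 h, and 116, 127 and 116 CPM at 24 h. The 24 h libraries lay above those at 0 h. At 24 h the log2 fold change was 0.32 (SE 0.11, adjusted p = 0.0682), and 0.42 (adjusted p = 0.0116) without replicate 1 at 0 h. CD276, on chromosome 15 from 73683966 to 73714518, is a B7 family ligand without an agreed receptor. It had 70.75, 80.95 and 92.6 at 0 h, 90.05, 85.5 and 86.7 at 12 h, and 100.8, 100.6 and 95.8 CPM at 24 h, where no library overlapped those at 0 h, a log2 fold change of 0.28 (SE 0.10, adjusted p = 0.0758). It was called without replicate 3 at 0 h (0.38, adjusted p = 0.0258) and with an offset for GC content and length (0.43, adjusted p = 7.872e-05).

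The nectin ligands lie on chromosome 19, PVR from 44643798 to 44663583 and NECTIN2 from 44846175 to 44889228. NECTIN2 had 102.5, 119 and 120.1 at 0 h, 128, 124 and 116.5 at 12 h, and 98.5, 98.7 and 106 CPM at 24 h in the libraries labelled OE-BRCA1. The treated libraries overlap those at 0 h at both times, and the log2 fold change was −0.17 (SE 0.10, adjusted p = 0.34) at 24 h. PVR, which shares 3.44% of its exonic bases with CEACAM19 on the same strand, had 153, 162 and 162.5 at 0 h, 152, 147 and 148 at 12 h, and 144, 135.5 and 148 CPM at 24 h. Its libraries at 12 h and 24 h lay just under those at 0 h, with log2 fold changes of −0.10 (95% interval −0.26 to 0.07) and −0.16 (−0.33 to 0.00). DESeq2 called the fall at 24 h (−0.17, adjusted p = 0.0411).

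Between 12 h and 24 h edgeR called none of the members in the libraries labelled OE-BRCA1, where 1.65% of all genes tested were called. At an unadjusted p under 0.05 there were 3, IDO1, WARS1 and NECTIN2, each lower at 24 h, and DESeq2 called none.

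**Figure D4:**
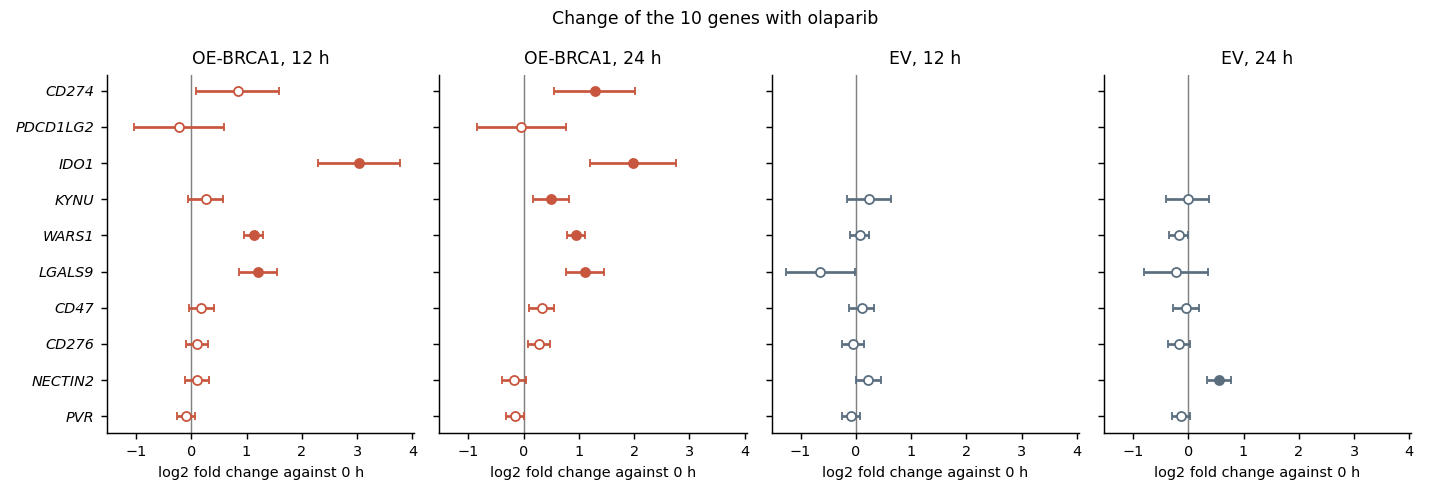
Log2 fold change against 0 h with 95% intervals for the 10 genes at 12 h and 24 h in the libraries labelled OE-BRCA1 (red) and EV (grey). Filled points are called at an adjusted p under 0.05, and CD274, PDCD1LG2 and IDO1 are not drawn for EV, where they had at most 11 reads over 3 libraries. IDO1, WARS1 and LGALS9 are called at both times in OE-BRCA1 and NECTIN2 alone at 24 h in EV.

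NECTIN2 was the only member that edgeR called after treatment in the libraries labelled EV, and this changed with an offset for GC content and length. At 12 h edgeR called none of the 10 (2 at an unadjusted p under 0.05, none by DESeq2), and 0.0436% of all genes tested were called. At 24 h NECTIN2 was higher, 1 of 10 members, against 13.7% of all genes tested, and DESeq2 called 2. DESeq2 gave an adjusted p for 7 of the 10 members at 12 h and for 7 at 24 h. Between 12 h and 24 h none was called by edgeR (2 at an unadjusted p under 0.05, none by DESeq2), against 0.18%. NECTIN2 had 56.2, 60.1 and 56.3 at 0 h, 60.0, 63.2 and 78.6 at 12 h, and 89.1, 89.0 and 75.6 CPM at 24 h. The 24 h libraries lay above all those at 0 h, and the log2 fold change was 0.56 (SE 0.11, adjusted p = 0.00387). With the offset it was 0.20 (adjusted p = 0.0686), so the call was lost. In that fit CD276 (−0.45, adjusted p = 0.0001368) and PVR (−0.36, adjusted p = 0.00169) were called lower at 24 h and CD47 higher (0.28, adjusted p = 0.0235). Between 12 h and 24 h it was called without replicate 3 of the EV libraries at 12 h (0.46, adjusted p = 0.0434), against 0.33 (adjusted p = 0.297) with all libraries. CD274 had 2, 4 and 11 reads over the 3 libraries at 0, 12 and 24 h, of which 8 at 24 h came from 1 library, and was not called.

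The treatment response itself was compared between the labelled lines. At 12 h the response of 2 members differed, both higher in OE-BRCA1, against 0.518% of all genes tested: WARS1 by 1.06 (SE 0.11, adjusted p = 4.959e-05) and LGALS9 by 1.85 (SE 0.34, adjusted p = 0.0107) on the log2 scale. At 24 h 4 of 10 differed, against 19.4% of all genes tested. WARS1 differed by 1.12 (SE 0.11, adjusted p = 1.127e-05), LGALS9 by 1.34 (SE 0.33, adjusted p = 0.00817) and CD276 by 0.44 (SE 0.14, adjusted p = 0.0271), each higher in OE-BRCA1. NECTIN2 differed in the other direction, by −0.73 (SE 0.15, adjusted p = 0.00309). Both LGALS9 calls were lost without replicate 1 of the EV libraries at 0 h, at 1.45 (adjusted p = 0.0815) and 0.94 (adjusted p = 0.0624), and that at 12 h also in the 12 libraries compared alone (1.85, adjusted p = 0.0708). The NECTIN2 difference was −0.21 with an offset for GC content and length and was then not called. For CD276 the call was lost in 9 of 12 fits with a library left out, and over all 12 the difference lay between 0.35 and 0.54. With the offset it was 0.88 (adjusted p = 2.042e-06). For IDO1, with no read in EV, a difference in response could not be estimated. For CD274 the interval ran from −3.14 to 1.31 at 24 h and does not exclude an equal response.

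At each time the labelled lines differed in 9 of the 10 members, with 8 higher and 1 lower in the libraries labelled OE-BRCA1 at 0, 12 and 24 h alike. Among the 8, IDO1, CD274 and PDCD1LG2 had at most 11 reads over 3 EV libraries. They passed the filter on low counts only through the OE-BRCA1 libraries, so their direction was set by that filter and supports nothing further. Of all genes tested 72.7%, 72.9% and 73.9% were called between the lines at these times, so most genes at large differ too. IDO1 was at least 12.4-fold higher in OE-BRCA1 at 0 h, at least 97.8-fold at 12 h and at least 51.1-fold at 24 h, set against 3 counts over the 3 EV libraries. CD274 was 49.6-fold higher at 0 h (95% counting interval 13.4 to 415.6), from 2 reads in EV, and PDCD1LG2 62.2-fold (10.75 to 2495), from 1 read. At 0 h LGALS9 was higher by 4.04 (SE 0.22), KYNU by 2.17 (SE 0.17), CD47 by 1.43 (SE 0.11), NECTIN2 by 0.98 (SE 0.11) and WARS1 by 0.75 (SE 0.08) on the log2 scale. CD276 was lower by 0.83 on that scale, with 145 ± 3.47 CPM in EV and 81.4 ± 10.95 CPM in OE-BRCA1, and PVR was not called, with a difference of 0.05 (95% interval −0.12 to 0.21). At 24 h the NECTIN2 difference was 0.26 (adjusted p = 0.0322) and was lost without replicate 3 of EV at 24 h (0.19, adjusted p = 0.155) or replicate 3 of OE-BRCA1 at 24 h (0.23, adjusted p = 0.0999), and without a filter on low counts (0.20, adjusted p = 0.18). With the offset for GC content and length the CD276 difference at 24 h was −0.12 (adjusted p = 0.0811) in place of −0.39 and no longer called, and PVR was called higher in OE-BRCA1 (0.20, adjusted p = 0.0109).

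Levels can be ranked between genes only per length. In CPM per kilobase of exon, the order in OE-BRCA1 at 0 h was WARS1 (62.2), PVR (45.3), NECTIN2 (30.4), CD276 (14.7), CD47 (11.6), LGALS9 (5.08), KYNU (1.16), PDCD1LG2 (0.542), CD274 (0.498) and IDO1 (0.234). The libraries of CD276 and CD47, and those of PDCD1LG2 and CD274, overlap in this order. At 12 h IDO1 moved from the last place to the seventh, at 1.94 CPM per kilobase, and at 24 h it stood at 0.929, between CD274 at 1.22 and PDCD1LG2 at 0.528, and overlapped both. In EV at 0 h PVR came first with 43.8 CPM per kilobase, before WARS1 with 36.9 and CD276 with 26.2, and LGALS9 and KYNU overlapped at 0.307 and 0.259. The exons of KYNU were taken as 17.6 kb over all its transcripts, so its level per kilobase is understated if the cells use shorter ones.

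Beyond the 10 genes, 25 of 32 further checkpoint and costimulatory ligands were tested. In the libraries labelled OE-BRCA1, 5 were higher at 12 h, and 6 were higher and 2 lower at 24 h, with a median log2 fold change of 0.24 and 0.26. Of all genes tested 2.31% were called there at 12 h and 8.26% at 24 h. The BTN3A butyrophilins, which take part in γδ T cell responses, rose at both times. BTN3A1 went from 19.96 ± 0.766 CPM to 37.4 ± 1.88 CPM after 12 h and 47.65 ± 2.58 CPM after 24 h, with a log2 fold change of 1.26 (adjusted p = 1.791e-07) at 24 h, and BTN3A3 and BTN3A2 rose by 1.15 and 0.96 on that scale. CEACAM1, an adhesion molecule and reported ligand of TIM-3, went from 22.3 ± 2.39 to 66.6 ± 3.42 CPM at 12 h (log2 fold change 1.58, adjusted p = 4.77e-06). VTCN1, the B7 family ligand B7-H4, had 36.3 ± 2.95, 60.5 ± 0.74 and 49.7 ± 1.96 CPM at 0, 12 and 24 h, higher than at 0 h at both times. The 2 that fell at 24 h, named after their values were seen, were VSIR (log2 fold change −0.56) and CD24 (−0.54), a further inhibitor of phagocytosis. EV libraries had none called by edgeR at 12 h (4 at an unadjusted p under 0.05, 2 by DESeq2) and 5 at 24 h, all higher, led among those above 1 CPM by TNFSF9, the ligand of 4-1BB, with 57.55 ± 4.64 CPM before and 118 ± 1.09 CPM after 24 h (log2 fold change 1.04, adjusted p = 0.000126). Beside these 5 of 25 ligands, 13.7% of all genes tested were called in EV at 24 h, and 0.0436% at 12 h.

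**Figure D5:**
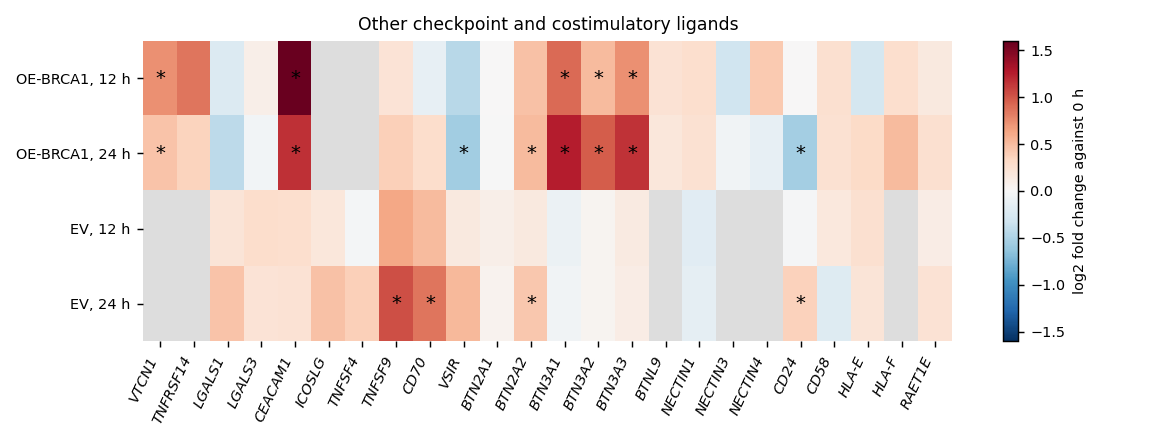
Log2 fold change against 0 h of 24 further checkpoint and costimulatory ligands (columns) in 4 treatment comparisons (rows), with the color scale running from −1.6 to 1.6. Stars mark an adjusted p under 0.05, and grey cells are genes with a mean under 1 CPM at every time in that labelled line. CEACAM1 and BTN3A1, BTN3A2 and BTN3A3 are called higher in both OE-BRCA1 rows, and TNFSF9 at 24 h in EV.

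Genes listed for the interferon gamma and IRF1 axis were also called in the libraries labelled OE-BRCA1. Which type of interferon, if any, acted on them was not tested. Of 18 genes of that axis 17 were tested, and in OE-BRCA1 7 were higher at 12 h and 9 at 24 h, none lower, with a median log2 fold change of 0.43 and 0.62. EV libraries had none called by edgeR at 12 h (2 at an unadjusted p under 0.05, 2 by DESeq2) and at 24 h 1, JAK1, was lower. Of all genes tested 2.31% and 8.26% were called at 12 h and 24 h in OE-BRCA1, and 0.0436% and 13.7% in EV. CXCL10, a chemokine for T cells, rose from 4.96 ± 0.949 to 41.85 ± 3.11 CPM after 12 h in OE-BRCA1 (log2 fold change 3.08, adjusted p = 1.855e-07) and had 14.3 ± 2.96 CPM at 24 h. CXCL11 rose by 2.57 and 2.08, STAT2 by 1.33 and 1.28, NLRC5, the activator of MHC class I genes, by 0.91 and 0.66, and CIITA, that of class II genes, by 0.86 and 0.93 on the log2 scale at 12 h and 24 h. IRF1, a transcription factor known to act on CD274 and IDO1, had 42.2 ± 1.99, 66.4 ± 3.95 and 77.1 ± 4.01 CPM at 0, 12 and 24 h. Its highest mean was at 24 h, as for CD274, KYNU, CD47 and CD276. The means of CXCL10, IDO1, WARS1, LGALS9 and NECTIN2 were highest at 12 h, and those of PDCD1LG2 and PVR at 0 h. For CD274 the difference between 12 h and 24 h was not called. A part of IRF1 in the levels of these genes was not tested.

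Over the 9 libraries labelled OE-BRCA1, the genes most like IDO1 in log2 CPM among 14714 genes compared were CXCL10 (Pearson's r = 0.976), THEMIS2, VTCN1, GABRP and CXCL11 (r = 0.953). Those most like CD274 were IL1A (r = 0.984), RBM43, ENSG00000273329, GTF2IP20 and CCN2 (r = 0.965). These values describe 9 libraries that share 3 times of treatment and are not a test. No r is given over all 18 libraries, which fall into 2 groups by labelled line.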

How the data were processed

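RNA-seq of 18 libraries, 3 for each of 6 conditions, was analysed; cell line, time and replicate came from the sample titles. The authors deposited unnormalized counts of reads for each of 35044 genes in a joint table and in 18 single tables that hold the same values. The submitters' processing notes name HISAT2, featureCounts, DESeq2 and GRCh38 (hg38); versions and strandedness are not given in the sources used here. Symbols were found for 99.78% of identifiers and GENCODE 29 positions for 96.7%.

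Counts were filtered with filterByExpr (18335 genes), scaled by TMM and tested with edgeR 4.0.16 in R 4.3.3 (quasi-likelihood test, one mean per condition over 18 libraries, Benjamini-Hochberg adjustment). The biological coefficient of variation was 12.9%. No pair of replicates agreed within sampling noise (chi-square per degree of freedom 3.25 to 42.3), so each was entered as 1 library. This does not show that the libraries came from separate cultures. The script was tested on simulated data. The 95% intervals of log2 fold changes are those of the edgeR fit, and the counting intervals and limits of 3 counts cover counting error only.

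The members and gene lists were chosen with earlier results of these data known. Named are the 10 members in every comparison, BRCA1, from each further list at most 5 genes called after treatment with a mean of at least 1 CPM, by the largest log2 fold change, list genes that a statement turns on, and the 5 genes most correlated with IDO1 and CD274. Genes outside this rule are marked. Alternatives were DESeq2 1.42.0 (size factors or Wald test), other filters, an offset for GC content and length, a replicate block, the compared libraries alone, log2 fold changes over 0.5 or 1, and each library left out. DESeq2 gave no adjusted p for some genes of the members and lists, which then stand as not called by it. The fit of each labelled line alone was added after seeing the data. The other experiments of the study were not analysed here, and some genes of the lists are not reported here.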

Additional observations from a re-analysis of the deposited data

Results flagged for a closer look

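The response to PARPi treatment of 4 members differed between the labelled lines by a test of the difference itself, edgeR's interaction contrast with Benjamini-Hochberg adjustment. For WARS1 the log2 fold change in the libraries labelled OE-BRCA1 exceeded that in EV by 1.06 at 12 h and 1.12 at 24 h. For LGALS9 the difference was 1.85 at 12 h and 1.34 at 24 h. CD276 differed by 0.44 at 24 h. Neither line alone was then called for CD276 by edgeR, but with an offset for GC content and length it was higher in OE-BRCA1 (0.43) and lower in EV (−0.45). NECTIN2 differed by −0.73 at 24 h, from a rise in EV and a log2 fold change of −0.17, not called, in OE-BRCA1. All other members gave no call for the difference, and for IDO1 it could not be estimated. The marker levels that separate the libraries labelled EV from those labelled OE-BRCA1 stand beside these values, and their part in the differences was not tested.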

How the results depend on the processing

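Of the member values under the alternatives, 1795 kept their side of the threshold and their direction, 53 lost the call, 24 gained one and 2 reversed, both for CD47 in EV at 24 h (−0.03, and 0.28 with the offset for GC content and length, alone or with the replicate block). At 24 h against 0 h in OE-BRCA1, where 5 members were called, the count was 3 with at least 10 counts in every library, 8 by DESeq2's Wald test, 3 over a log2 fold change of 1, and 3 to 6 with a library left out. At 24 h against 12 h (0 called) it was 1 without a filter on low counts, 2 with the offset, 2 with the replicate block and offset, and 3 in the compared libraries alone. In EV at 24 h (1 called) it was 3 with the offset, 3 with the block and offset, 2 by DESeq2's Wald test and 0 over a log2 fold change of 1; at 24 h against 12 h it was 0 to 1 with a library left out. The line difference at 12 h (2 called) gave 1 in the compared conditions alone and 1 to 2 with a library left out, and that at 24 h (4 called) 2 over a log2 fold change of 1 and 2 to 5 with a library left out. The cause of these shifts was not tested, apart from the counts over a fold threshold, which follow from it, and the filter of 10 counts, which leaves out CD274, PDCD1LG2 and IDO1. The calls of IDO1, WARS1 and LGALS9 at 12 h in OE-BRCA1 held in every fit that kept the gene.

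Counts over all genes, which set the percentages called, moved by more than 1.5 times as follows, "left out" giving the range with 1 library left out. OE-BRCA1 at 12 h (423): 1127 with the offset, of which 561 higher against 312 of 423, 1120 with block and offset, 698 by DESeq2, 125 over a log2 fold change of 1, 257 to 468 left out. OE-BRCA1 at 24 h (1515): 2847 with the offset, 2711 with block and offset, 809 compared alone, 302 over 1, 644 to 3329 left out. OE-BRCA1 at 24 h against 12 h (303): 959 without a filter, 789 with the offset, 742 with block and offset, 3208 compared alone, 844 by DESeq2, 45 over 1, 69 to 103 left out. EV at 12 h (8): 818 without a filter, 1 with the block, 136 with the offset, 89 with both, 0 compared alone, 1 in the EV line alone, 352 by DESeq2, 1 over 1, 1 to 462 left out. EV at 24 h (2520): 5173 compared alone, 346 over 1, 1609 over 0.5, 462 to 2227 left out. EV at 24 h against 12 h (33): 139 without a filter, 199 with the offset, 195 with block and offset, 6 compared alone, 14 in the EV line alone, 165 by DESeq2, 10 over 1, 14 to 115 left out. Lines at 0, 12 and 24 h (13330, 13371, 13555): 8774, 8737 and 8871 with at least 10 counts in every library, 8596, 8561 and 8771 over 1. Line difference at 12 h (95): 644 without a filter, 640 with the offset, 583 with block and offset, 37 compared alone, 399 by DESeq2, 47 over 1, 49 to 772 left out; at 24 h (3554): 1147 over 1, 2062 to 5502 left out.

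The replicate numbers do not pair the samples: same-numbered libraries had correlations of their deviations from −0.227 to 0.147, in no comparison all over 0.1. The replicate block left the members called at 3 and 5 in OE-BRCA1 at 12 h and 24 h and at 1 in EV at 24 h. Depth limits CD274, PDCD1LG2 and IDO1, whose low counts leave wide intervals.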
